A study of Mus musculus with 3 samples.

Results

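The kinetochore is the protein assembly that joins each chromosome to the mitotic spindle, and the spindle checkpoint holds a cell in mitosis until every kinetochore is attached. The genes described here are 42 components of both, taken by gene symbol: the centromeric histone CENPA and its loading factors, the inner and outer kinetochore, the checkpoint, the chromosomal passenger complex and the shugoshins. All 42 were among the 16977 genes of the deposited table, and none was absent. They were measured in cultured neural stem cells from E12.5 embryos of the C57BL/6J mouse strain. The cells carried a lentivirus with a control short hairpin RNA (shControl) or with one against PHF2 (shPHF2), a histone demethylase of lysine 9 of histone H3. Both kinds of culture thus went through lentiviral infection and grew in EGF and FGF, and no uninfected culture is analysed here. There were 3 libraries of total RNA without ribosomal RNA, 1 of shControl and 2 of shPHF2, which the series describes as biological replicates.

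The inner kinetochore is built on nucleosomes that hold CENPA and stays on centromeres through the cell cycle. In mitosis it recruits the outer layer, the NDC80, MIS12 and KNL1 complexes, of which NDC80 is the main microtubule coupler. Kinetochores without microtubules bring in TTK, BUB and MAD proteins, which form the inhibitor of the anaphase-promoting complex, while Aurora B in the passenger complex releases faulty attachments. Many of these transcripts are known to peak late in the cell cycle, and neural stem cells divide rapidly at this stage of brain growth.

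Between 26302177 and 37171026 reads per library fell in genes. Values are normalised reads, reads after division by a size factor that puts the libraries on 1 scale. The control, shControl, is 1 library, so its spread is unknown. Replicates 1 and 2 are the shPHF2 libraries, and fold changes are differences of log2(normalised reads + 1). Phf2 itself had 2593 normalised reads in the control, 985 in replicate 1 and 714 in replicate 2. Of the neural stem cell markers, 10 of 10 were in the table and their sum was 331508, 345110.0 and 388761 in shControl, replicate 1 and replicate 2; 1 of them was higher by the test and 0 lower. In the same order, the sums were 61834, 41115 and 40309.8 for 7 of 7 neuronal markers, most of it Map2, and 1222, 2708 and 2802 for 5 of 5 astrocyte markers, 1 of them called higher. They were 2794, 2376 and 2087 for 6 of 6 oligodendrocyte-lineage markers and 291, 335 and 178 for 6 of 6 of endothelium and pericytes. The sums hide members that differ. Without regard to level, the median log2 fold change was 0.33 over the neuronal markers. Tubb3 had 104, 198 and 346 normalised reads and Neurod1 3.99, 26.7 and 44.6. Map2, Rbfox3 (142, 87.5 and 13.3) and Snap25 were lower in both shPHF2 libraries, and Dcx and Syt1 lay on both sides of the control. Over the astrocyte markers the median was 1.54, and each was higher in both shPHF2 libraries. Their similar sums hide a difference between these libraries: S100b had 331, 1094 and 850, and Aldh1l1 146, 152 and 1009. Gfap and Aqp4 had at most 37.4 in any library. The median was -1.04 over the 4 oligodendrocyte-lineage markers tested. Pdgfra had 539, 303 and 159, and Cspg4, most of that sum, 2114, 2008 and 1830. Of the stem cell markers, Vim, Sox2, Slc1a3 and Prom1 were higher in both shPHF2 libraries. Nes, Pax6 (1392, 1046 and 691), Hes1 and Hes5 were lower in both, and Fabp7 and Notch1 lay on both sides. The 3 of 6 microglial markers in the table summed to at most 34.2 and the 4 of 5 fibroblast markers to at most 14.5 in any library. Aif1, Tmem119, Aqp4 and Col1a2 were at 0 in shControl, Col1a1 and Mog in replicate 2, and Cldn5 in both shPHF2 libraries. The part of other cell types in the results below was not tested.

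Kinetochore and checkpoint transcripts were about 1.0 lower on the log2 scale in the cells with the PHF2 hairpin. Of the 42 genes, 26 fell and 0 rose by the test, against 7.11% of all 14148 genes tested lower and 7.22% higher (limma, Benjamini-Hochberg adjusted p under 0.05 over all genes tested). With scaling to total reads in genes instead, 18 of the 42 were called lower, and the split of all genes moved from 1006 lower and 1021 higher to 685 and 1000. The 42 genes had a median log2 fold change of -1.04, or -0.79 from replicate 1 alone and -1.26 from replicate 2 alone, and all genes tested one of -0.01. By the fitted value, 24 of the 42 were at least 2-fold lower (background 6.54% of all genes). In 40 of the 42 both shPHF2 libraries lay below shControl, as they did for 41.8% of all genes tested, and Cenpt and Zwint were the exceptions. The authors' deposited table also called 26 of the 42 lower (adjusted p under 0.05), against 7.96% of the 12697 genes with an adjusted p there, and 25 were shared: Cenpk was called by limma only and Cenpe by the authors only. The calls changed with the setting: limma called 0 of the 42 without a mean-variance trend, without a filter on low values and with quantile normalisation, where 26, 32 and 33 were lower at an unadjusted p under 0.05, against 10.9%, 11.4% and 12.9% of all genes in those settings. On recovered reads edgeR called 25 and DESeq2 26. In RNA from whole cultures, fewer cells in mitosis and less of these transcripts per cell cannot be told apart.

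**Figure D1:**
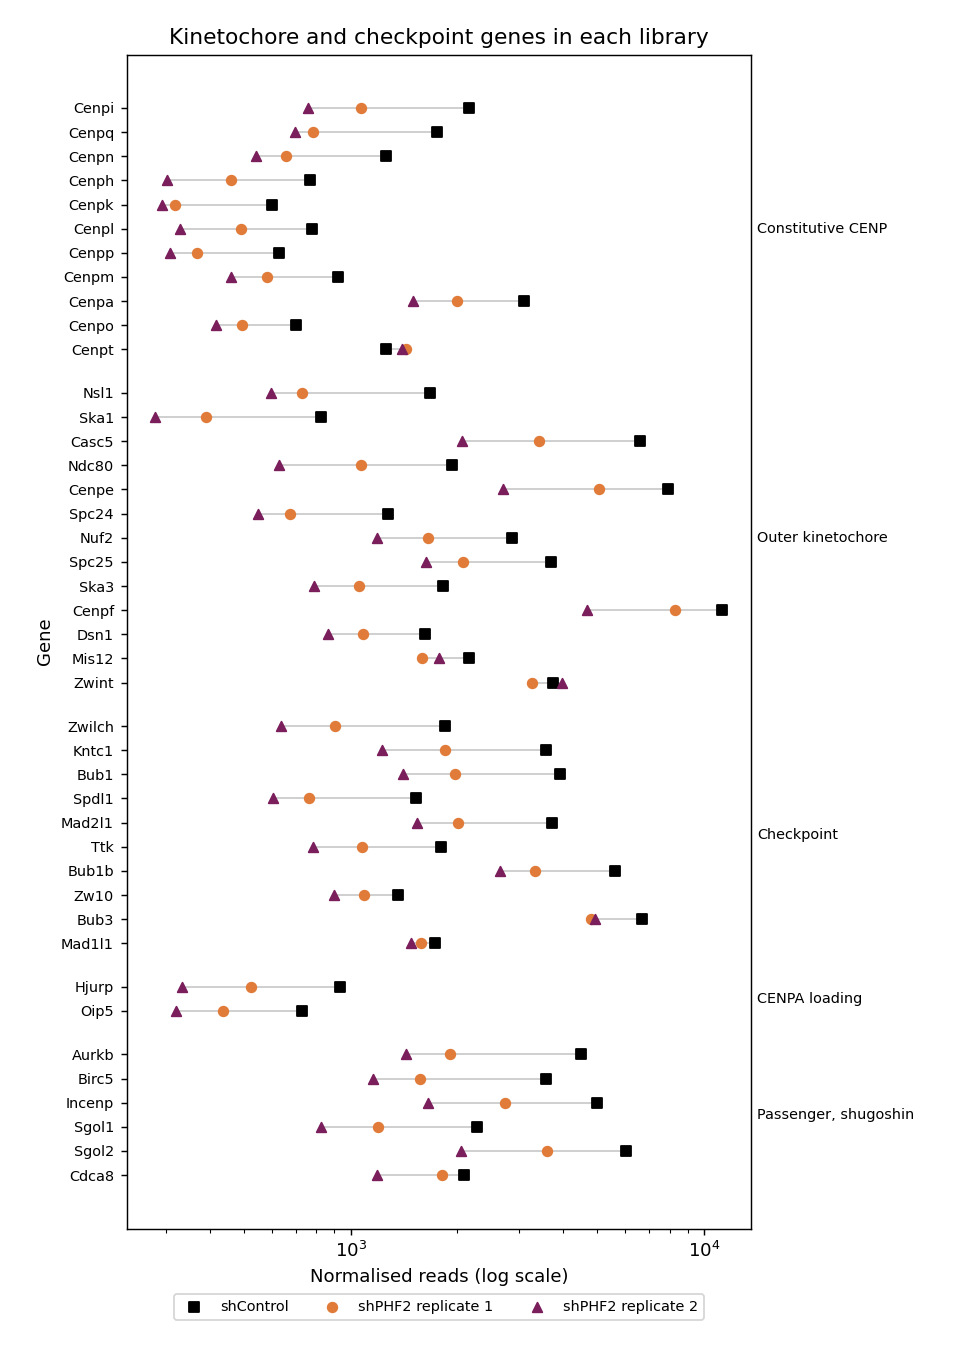
Normalised reads (x axis, log scale) of the 42 genes (rows, by role and then by log2 fold change) in shControl (black squares), shPHF2 replicate 1 (circles) and shPHF2 replicate 2 (triangles); each symbol is 1 library and the grey line joins the lowest and the highest. The square stands to the right of both shPHF2 symbols for 40 genes, to the left of both for Cenpt and between them for Zwint.

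Many promoters of the 42 genes hold short sequence elements of cell cycle genes, a feature that the choice of genes did not use. Windows of 300 bases around the annotated start, 250 before it and 50 after it, were at hand for 36 of the 42 (RefSeq, GRCm38.p6; the first window listed for a gene). The others were Spc24, Nsl1, Ska1, Zwilch, Incenp and Aurkb. The cell cycle homology region (CHR, TTTGAA on either strand), a late cell cycle element known to be bound by the MuvB complex, was present in 17 of the 36 (47.2%), against 18.1% of all 27025 windows and 11.8% of the 11099 windows of genes tested here. The contrast was sharper near the start: within 50 bases either side, 15 of the 36 (41.7%) and 4.92% of all windows held it. CCAAT on either strand, the box bound by the factor NF-Y, was present in 24 of the 36 (66.7%) and in 37.9% of all windows. One of 4 words of the E2F site (the word TTCCCGC, the word TTGGCGC, the word TTCGCGC or the word TTGCCGC, either strand) was present in 9 (25.0%), against 9.69% of all windows and 17.2% of those of genes tested. A CHR and a CCAAT stood together in 13 windows of the 36 (36.1%) and in 7.12% of all. A CHR and a CCAAT shared bases in Kntc1 and Cdca8. These are matches of letters, not measured binding.

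The following windows run from 100 bases before the start to 30 after it, 5′ to 3′ on the strand of the gene, with the motif matches in capitals. The first 4 are outer kinetochore and checkpoint genes that hold both a CHR and a CCAAT in this stretch, picked as examples from several such members. The last 3 are shown as a contrast: Birc5, among the genes that fell most, and Cenpt and Mad1l1, with changes near 0, have none of the 3 motifs anywhere in their 300 bases. The Cenpt window lies inside the span that GENCODE M21 gives the gene (105844673 to 105853278). The outer start of that span was not searched, so the lack of motifs holds only for the RefSeq start.
Ttk, chr9:83834589-83834718 (plus strand): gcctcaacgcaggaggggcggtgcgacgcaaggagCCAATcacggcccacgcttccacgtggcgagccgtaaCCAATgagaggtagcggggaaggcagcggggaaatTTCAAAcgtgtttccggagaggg
Cenpf, chr1:189688057-189688186 (minus strand): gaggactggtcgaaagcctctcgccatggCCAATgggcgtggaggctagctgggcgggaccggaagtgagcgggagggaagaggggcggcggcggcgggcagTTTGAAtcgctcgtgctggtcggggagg
Spdl1, chr11:34833612-34833741 (minus strand): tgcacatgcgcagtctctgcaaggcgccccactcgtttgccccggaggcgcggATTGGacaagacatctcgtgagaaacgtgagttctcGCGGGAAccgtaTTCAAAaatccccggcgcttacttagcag
Kntc1, chr5:123749626-123749755 (plus strand): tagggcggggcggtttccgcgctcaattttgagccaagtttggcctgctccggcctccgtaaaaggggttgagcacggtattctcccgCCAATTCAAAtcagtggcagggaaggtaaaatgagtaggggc
Birc5, chr11:117849137-117849266 (plus strand): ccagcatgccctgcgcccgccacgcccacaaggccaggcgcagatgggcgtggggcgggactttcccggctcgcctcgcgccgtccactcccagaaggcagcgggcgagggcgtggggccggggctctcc
Cenpt, chr8:105851979-105852108 (minus strand): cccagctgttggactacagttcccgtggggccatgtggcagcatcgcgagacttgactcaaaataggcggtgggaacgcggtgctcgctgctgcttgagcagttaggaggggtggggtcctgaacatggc
Mad1l1, chr5:140321523-140321652 (minus strand): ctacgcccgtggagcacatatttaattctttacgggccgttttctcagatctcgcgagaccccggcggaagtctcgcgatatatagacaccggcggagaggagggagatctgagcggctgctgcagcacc

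Genes with and without a motif had similar median changes among the 36. The 6 genes without a window are missing from this comparison, and all of them fell, with log2 fold changes from -1.44 to -1.07. The median log2 fold change was -0.97 with a CHR and -1.03 without one, and -0.99 with and -0.95 without a CCAAT. A CHR was present in 11 of the 20 genes of these that fell and in 6 of the 16 that did not pass. Within 50 bases of the start, it was in 11 of the 20 and 4 of the 16. Over the 300 bases, a CCAAT was in 14 of the 20 and 10 of the 16. An E2F word went the other way, in 3 of the 20 and 6 of the 16. By role, a CHR was found in 6 of 9 checkpoint genes, 5 of 10 outer kinetochore genes and 3 of 11 constitutive CENP genes with a window. It was in 2 of 2 CENPA loading factors but in only 1 of 4 passenger and shugoshin genes, the group with the most negative median. E2F words had another distribution, with 5 of 11 constitutive CENP genes, 1 of 10 outer kinetochore genes and 2 of 9 checkpoint genes. They were in 0 of 2 loading factors and 1 of 4 passenger and shugoshin genes. These counts are small and were not tested.

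Most genes of the constitutive centromere were lower, though fewer of them passed the test. Of 11 (Cenpa, Cenph, Cenpi, Cenpk, Cenpl, Cenpm, Cenpn, Cenpo, Cenpp, Cenpq and Cenpt), 5 fell and 0 rose (background 7.11% and 7.22% of all genes tested). At an unadjusted p under 0.05 by limma, 10 were lower (background 15.4% of all genes tested), and the median log2 fold change was -0.95. Cenpi (chromosome X, 134308084 to 134362639, GENCODE M21, GRCm38), a subunit that helps to place new CENPA, had 2167 normalised reads in the control, 1067 in replicate 1 and 759.6 in replicate 2. Both shPHF2 libraries lay far below the control, a log2 change of -1.27 with an SE of 0.25 (limma, adjusted p = 0.017). Cenpq (chromosome 17, 40923051 to 40935047), of the CENPO-CENPP-CENPQ-CENPU subcomplex, had 1751 normalised reads in the control, 785 in replicate 1 and 696 in replicate 2, a log2 change of -1.24 with an SE of 0.21 (limma, adjusted p = 0.012). Its shPHF2 libraries differed little from each other. Cenpn, which reads the CENPA nucleosome together with Cenpl, fell by 1.08, from 1256 to 598 ± 80.6 (SD over both shPHF2 libraries, n = 2).

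Cenpa itself (chromosome 5, 30666777 to 30674830), the histone H3 variant that marks the centromere, had 3100.0 normalised reads in the control, 2001 in replicate 1 and 1503 in replicate 2. It fell, with a log2 change of -0.84 with an SE of 0.22 (limma, adjusted p = 0.040), a call that was lost with scaling to total reads in genes (limma, adjusted p = 0.070) and with a correction for GC content and length (adjusted p = 0.072). Cenpk passed only just, from 598 to 305 ± 18.9 (SD over both shPHF2 libraries, n = 2) at an adjusted p of 0.0496 by limma, and was not called with a pseudocount of 5, with DESeq2 or with either of those corrections (adjusted p = 0.052 to 0.094). Cenph, Cenpl, Cenpm and Cenpp had log2 fold changes of -1.04, -0.95, -0.84 and -0.90 and did not pass (limma, adjusted p from 0.061 to 0.073). Their shControl values lay between 628 and 923 normalised reads, so these genes rest on fewer reads than most of the 42. Cenpo stood at -0.62 (limma, adjusted p = 0.14), and 19.0% of its exonic bases overlap Adcy3 on the other strand, so its reads are less certain.

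Cenpt was the 1 gene of the 42 above the control in both shPHF2 libraries, as were 41.4% of all genes. Its protein reaches from centromeric DNA to the NDC80 complex. It (chromosome 8, 105844673 to 105853278) had 1264 normalised reads in the control, 1432 in replicate 1 and 1396 in replicate 2, a log2 change of 0.16 with an SE of 0.19 (limma, adjusted p = 0.61), so the change did not pass. Other inner kinetochore genes (Cenpc1, Cenpw, Apitd1, Mlf1ip and Itgb3bp) had log2 fold changes from -0.97 to -0.50, none of which passed (limma, adjusted p from 0.095 to 0.23). Cenpb, whose protein binds a motif in centromeric satellite DNA, had 0.26 (limma, adjusted p = 0.39).

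The pair of CENPA loading factors was lower as well. Hjurp (chromosome 1, 88262471 to 88277633), the chaperone that deposits CENPA, had 936 normalised reads in the control, 522 in replicate 1 and 334 in replicate 2. It fell, with a log2 change of -1.16 with an SE of 0.31 (limma, adjusted p = 0.043), and was not called with scaling to total reads in genes (limma, adjusted p = 0.071). Oip5 (chromosome 2, 119609512 to 119618469), a subunit of the MIS18 complex that licenses loading, had 727 normalised reads in the control, 435 in replicate 1 and 321 in replicate 2, a log2 change of -0.96 with an SE of 0.28 (limma, adjusted p = 0.061), which did not pass. Mis18a, of the same complex, had a log2 fold change of -0.68 that did not pass (limma, adjusted p = 0.071).

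In the outer kinetochore, 8 of 13 genes fell and 0 rose (background 7.11% and 7.22% of all genes), with a median log2 fold change of -1.03. Nsl1 (chromosome 1, 191063012 to 191086474), a subunit of the MIS12 complex, had 1679.6 normalised reads in the control, 729 in replicate 1 and 594 in replicate 2, a log2 change of -1.35 with an SE of 0.23 (limma, adjusted p = 0.012). Ska1 (chromosome 18, 74195299 to 74207818), of the SKA complex that follows shrinking microtubule ends, had 824 normalised reads in the control, 389 in replicate 1 and 279.7 in replicate 2, a log2 change of -1.32 with an SE of 0.29 (limma, adjusted p = 0.025). In replicate 1, the higher of the libraries, Nsl1 was at 43.4% and Ska1 at 47.1% of the control. Casc5, the gene of the checkpoint scaffold KNL1, had 6593 normalised reads in the control, 3415 in replicate 1 and 2063 in replicate 2. It fell by 1.31 on the log2 scale (limma, adjusted p = 0.023), and replicate 2 lay well below replicate 1.

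The 4 subunits of the NDC80 complex, the main microtubule coupler, fell together. Ndc80 had 1932 normalised reads in the control, 1067 in replicate 1 and 627 in replicate 2, a log2 change of -1.24 with an SE of 0.31 (limma, adjusted p = 0.036). The log2 fold changes of the other three were -1.03 for Nuf2, -1.07 for Spc24 and -1.01 for Spc25 (limma, adjusted p from 0.020 to 0.027). The call of Ndc80 was lost with scaling to total reads in genes and with the GC and length correction (limma, adjusted p = 0.062 and 0.070), and that of Nuf2 with the latter (adjusted p = 0.054). Ska3 fell by 1.00, and its call was lost under the same corrections (limma, adjusted p = 0.052 and 0.052).

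Subunits of the same complex did not all move by the same amount. Of the MIS12 complex, Dsn1 and Mis12 had log2 fold changes of -0.75 and -0.37 that did not pass (limma, adjusted p = 0.061 and 0.22), beside -1.35 for Nsl1. Mis12 had 2167 normalised reads in the control, 1589.9 in replicate 1 and 1776 in replicate 2, so both shPHF2 libraries were below the control but replicate 2 was the higher of them. Zwint (chromosome 10, 72654845 to 72674964), which binds KNL1 and the RZZ complex, had 3752 normalised reads in the control, 3259.8 in replicate 1 and 3973 in replicate 2. The control lay between its shPHF2 libraries, a log2 change of -0.06 with an SE of 0.19 (limma, adjusted p = 0.87), and the sign of that value turned with scaling to total reads in genes, quantile normalisation and the GC and length correction.

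The large fibrous proteins of the kinetochore corona had the most reads of the 42, not corrected for length, and the widest gap between the shPHF2 libraries. Cenpe, the kinesin motor that moves chromosomes to the spindle equator, had 7898 normalised reads in the control, 5037 in replicate 1 and 2707 in replicate 2. Its log2 fold change of -1.10 did not pass by limma (adjusted p = 0.060), whereas the authors' deposited table gives an adjusted p of 0.014 and DESeq2 on the recovered reads 0.014. Cenpf, a microtubule-binding protein of late cell cycle, had 11288 normalised reads in the control, 8288 in replicate 1 and 4677 in replicate 2, a log2 fold change of -0.86 (limma, adjusted p = 0.10) that did not pass. Both were below the control in each library, and their standard errors of 0.32 and 0.31 were among the largest of the 42.

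Among the checkpoint genes, 7 of 10 fell and 0 rose (background 7.11% and 7.22% of all genes), with a median log2 fold change of -1.03. The RZZ complex, which brings dynein and MAD1 to kinetochores, was split. Zwilch (chromosome 9, 64137144 to 64173104) had 1845 normalised reads in the control, 901 in replicate 1 and 637 in replicate 2, a log2 change of -1.28 with an SE of 0.25 (limma, adjusted p = 0.018). Kntc1 (chromosome 5, 123749716 to 123821593), the large ROD subunit, had 3567 normalised reads in the control, 1856 in replicate 1 and 1226 in replicate 2, a log2 change of -1.24 with an SE of 0.26 (limma, adjusted p = 0.021). Both had less in each shPHF2 library than in the control, with replicate 2 the lowest. The third subunit, Zw10, which also acts in membrane traffic outside mitosis, had 1359 normalised reads in the control, 1090.5 in replicate 1 and 897 in replicate 2, and its log2 fold change of -0.46 did not pass (limma, adjusted p = 0.19). Spdl1, the dynein adaptor Spindly that docks on RZZ, fell from 1534 to 681 ± 113 (SD over both shPHF2 libraries, n = 2), a log2 change of -1.18 with an SE of 0.23 (limma, adjusted p = 0.018).

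The kinases and MAD2 of the checkpoint fell, whereas BUB3 and MAD1 did not pass. Bub1, the kinase that prepares the inner centromere for the passenger complex, had 3920.3 normalised reads in the control, 1974 in replicate 1 and 1405 in replicate 2, a log2 change of -1.23 with an SE of 0.23 (limma, adjusted p = 0.016). Bub1b, which encodes the checkpoint inhibitor BUBR1, fell from 5601 to 2988 ± 486 (SD over both shPHF2 libraries, n = 2), and Ttk, the MPS1 kinase at the top of the pathway, from 1799 to 932 ± 209.9 (SD over both shPHF2 libraries, n = 2), the latter a call lost with scaling to total reads in genes and with the GC and length correction (limma, adjusted p = 0.062 and 0.066). Mad2l1, the MAD2 protein that binds CDC20, had 3727 normalised reads in the control, 2009 in replicate 1 and 1538 in replicate 2, a log2 change of -1.08 with an SE of 0.21 (limma, adjusted p = 0.018). Its partner Mad1l1 (chromosome 5, 140008689 to 140321552), which recruits it to kinetochores, had 1735 normalised reads in the control, 1585 in replicate 1 and 1478 in replicate 2, a log2 change of -0.18 with an SE of 0.19 (limma, adjusted p = 0.55). Bub3, the adaptor that binds phosphorylated KNL1, had 6667 normalised reads in the control, 4797 in replicate 1 and 4915 in replicate 2, a log2 fold change of -0.46 (limma, adjusted p = 0.11). Its shPHF2 libraries were close to each other and both below the control.

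Aurora B and survivin were the members with the most negative fold changes. Of the 4 passenger complex genes and 2 shugoshin genes, 5 fell and 0 rose (background 7.11% and 7.22% of all genes). Their median log2 fold change was -1.21. Aurkb (chromosome 11, 69045647 to 69051664), the kinase that corrects attachments, had 4500.5 normalised reads in the control, 1913 in replicate 1 and 1432 in replicate 2, a log2 change of -1.44 with an SE of 0.22 (limma, adjusted p = 0.0089). Birc5 (chromosome 11, 117849251 to 117855743), which encodes survivin, the subunit that places the complex on the inner centromere, had 3580.4 normalised reads in the control, 1569.8 in replicate 1 and 1156 in replicate 2, a log2 change of -1.41 with an SE of 0.22 (limma, adjusted p = 0.010). In replicate 1, the higher of the libraries, Aurkb was at 42.5% and Birc5 at 43.8% of the control. The scaffold gene Incenp fell from 4988 to 2194 ± 767 (SD over both shPHF2 libraries, n = 2), and was not called with scaling to total reads in genes (limma, adjusted p = 0.052). The fourth subunit, borealin (Cdca8; chromosome 4, 124918465 to 124939311), had 2101 normalised reads in the control, 1813 in replicate 1 and 1186 in replicate 2, a log2 change of -0.52 with an SE of 0.26 (limma, adjusted p = 0.22), and did not pass. Its replicate 1 was close to the control and replicate 2 was not.

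Both shugoshins, which protect centromeric cohesion, fell. Sgol1 had 2279.6 normalised reads in the control, 1197 in replicate 1 and 826 in replicate 2, a log2 change of -1.20 with an SE of 0.25 (limma, adjusted p = 0.022). Sgol2 fell from 6027 to 2820.1 ± 1086 (SD over both shPHF2 libraries, n = 2) (limma, adjusted p = 0.041). The Sgol2 call was lost with edgeR (adjusted p = 0.053) and with limma after scaling to total reads in genes or correction for GC and length (adjusted p = 0.073 and 0.078), and 35.0% of its exonic bases overlap Kctd18 on the other strand. In all, 12 of the 42 share exonic bases with another annotated gene, each on the opposite strand. Among the other 30, 21 fell and 0 rose (background 7.11% and 7.22% of all genes), with a median of -1.08.

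The medians of the constitutive, outer and checkpoint groups were -0.95, -1.03 and -1.03 on the log2 scale. Single genes within these groups had an SD of 0.39, 0.38 and 0.39. In replicate 1 the medians were -0.74, -0.79 and -0.82, and in replicate 2 -1.04, -1.27 and -1.24. The constitutive genes also had fewer reads, with a median of 923 normalised reads in the control against 2167 and 2706 for the outer and checkpoint genes, and the part of depth in their fewer calls was not tested. With a minimum mean of 50, 8 of the 11 constitutive genes were called, beside 8 of 13 and 7 of 10. No test of the difference between groups was made, since genes are not replicates of a condition.

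**Figure D2:**
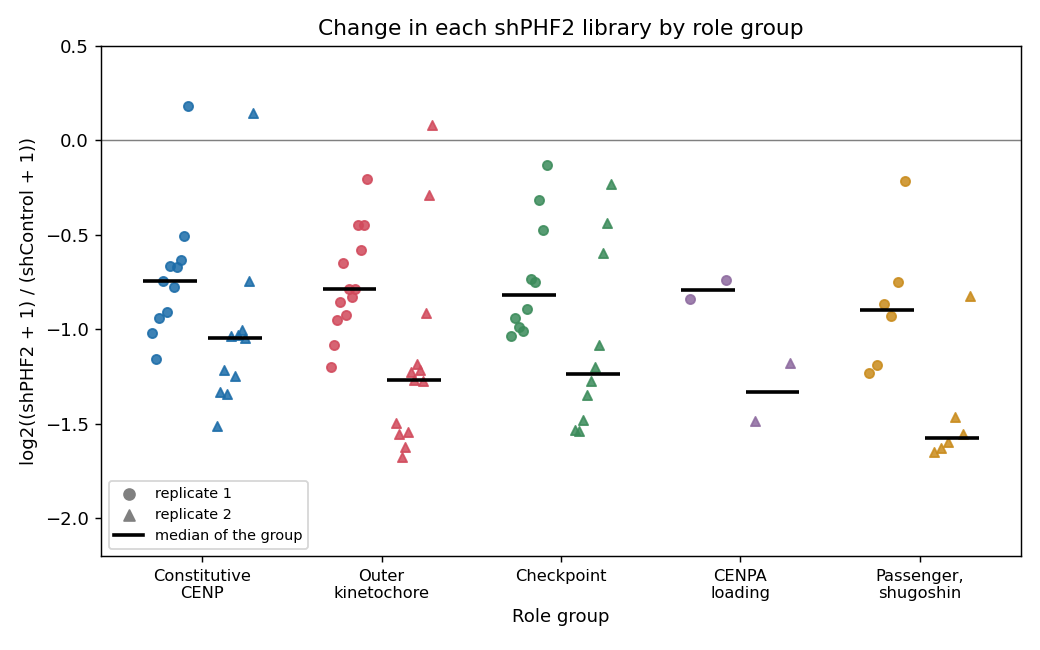
Log2 fold change against shControl (y axis, pseudocount of 1) of each gene in shPHF2 replicate 1 (circles) and replicate 2 (triangles), by role group (x axis); black bars are medians over the genes of a group. Replicate 2 medians lie below replicate 1 medians in each of the 5 groups, and Cenpt and Zwint are the symbols above 0.

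The shPHF2 libraries differed in how low these genes were. In replicate 1, 8 of the 42 were at least 2-fold below shControl (background 5.59% of all genes), and in replicate 2, 33 were (background 8.66%). Replicate 2 lay below replicate 1 for 39 of the 42, beside 49% of all genes, the exceptions being Bub3, Mis12 and Zwint. The median difference of replicate 2 minus replicate 1 was -0.42 on the log2 scale over the 42 and 0.01 over all genes. It was -0.28 for the constitutive, -0.43 for the outer and -0.36 for the checkpoint genes. Phf2 itself was also lower in replicate 2. Replicate 2 also stood apart in its reads: 20.5% had a low alignment quality, against 15.9% in replicate 1 and 17.0% in the control, and 38.7% lay in no annotated gene, against 44.0% and 42.7%. Its column carries another prefix in the deposited table than the other columns do. The part of these differences in the gap was not tested.

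**Figure D3:**
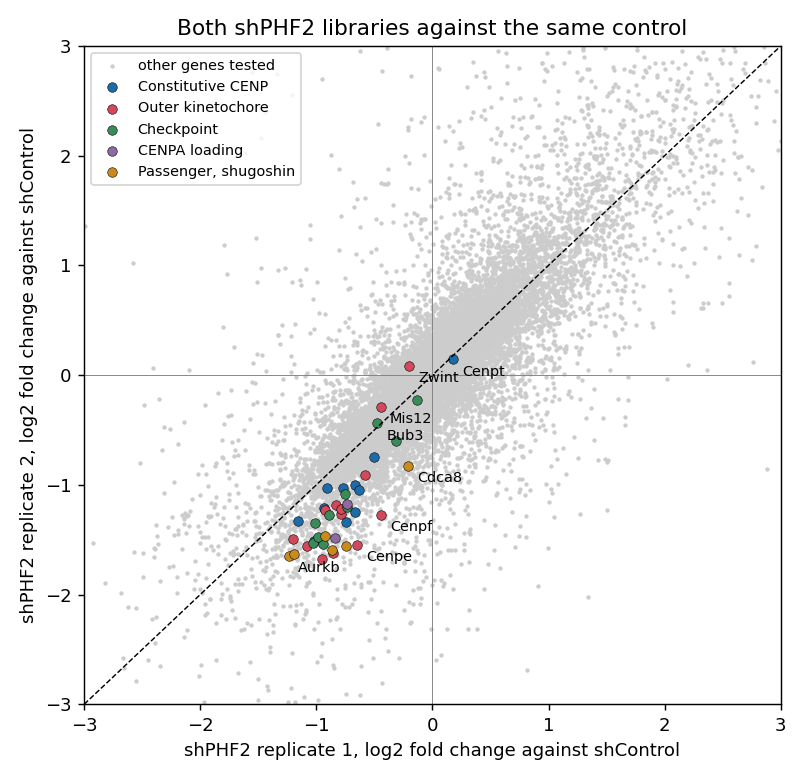
Log2 fold change of each gene tested against the same shControl library, in shPHF2 replicate 1 (x axis) and replicate 2 (y axis); coloured points are the 42 genes by role, grey points the others, and 252 genes lie beyond the plotted range of 3 in either direction. Because the axes share the control, the spread along the dashed line of equal values is partly common to both; 39 of the 42 coloured points lie below that line.

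The gap between the shPHF2 libraries was widest for some genes with long transcripts. It was -0.90 on the log2 scale for Cenpe, -0.83 for Cenpf, -0.81 for Sgol2 and -0.73 for Casc5, whose longest coding transcripts have 7910, 11130, 4939 and 7800 bases (GENCODE M21). Ndc80 and Incenp had gaps of -0.77 and -0.73 with transcripts of 2201 and 3236 bases, and Mad2l1 one of -0.38 with 7557 bases, so the order of the gaps was not that of the lengths. Across the 42 genes the gap and the log2 length had a Pearson r of -0.39 and a Spearman rho of -0.37, and across 14018 genes with a length -0.10 and -0.21. Genes of 1 library pair share its depth and RNA quality and are not independent, so no p is given.

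**Figure D4:**
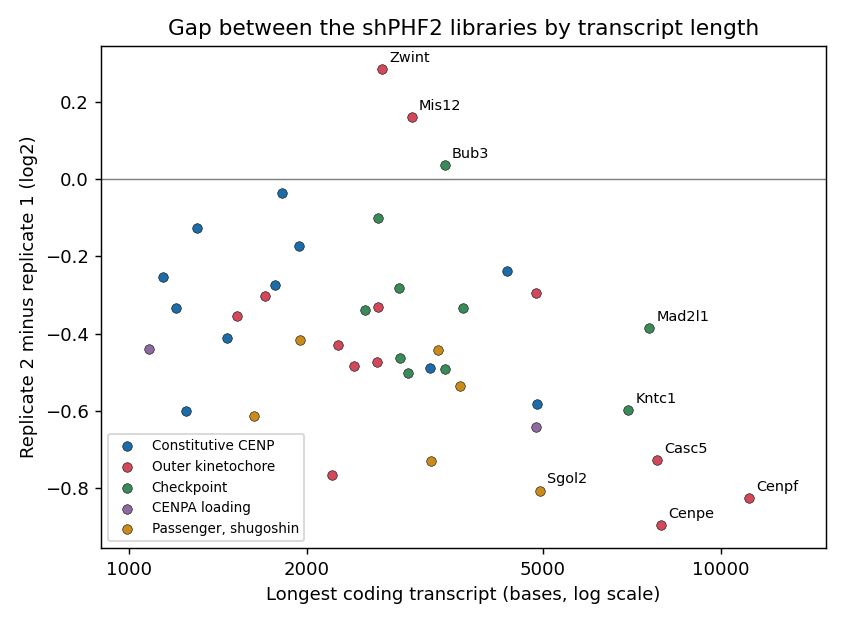
Difference of shPHF2 replicate 2 minus replicate 1 (y axis, log2(normalised reads + 1)) against the length of the longest coding transcript (x axis, bases, log scale) for the 42 genes, coloured by role. Zwint, Mis12 and Bub3 are the points above 0, and Cenpe and Cenpf, with 7910 and 11130 bases, are the lowest.

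Levels differed more than 10-fold between the 42 genes. Per kilobase of the longest coding transcript, shControl held 2426 normalised reads for Spc25, 2308 for Aurkb, 2115 for Cenpa and 1953 for Bub3, the highest of the 42. The lowest were Cenpl with 159, Cenpo with 161 and Hjurp with 192. Subunits of the NDC80 complex spanned 754 for Spc24 to that of Spc25. The transcript in use was not measured, and a shorter form would raise these values.

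Other genes of the pathway came from a list of 50 symbols, some of them an older and a newer name of the same gene, and 45 of the symbols were in the table. Of the 45, 9 fell and 1 rose, with a median log2 fold change of -0.54. Among all genes tested 7.11% fell and 7.22% rose, so 1 rise among 45 is not above that share. Trip13, the ATPase that recycles MAD2, fell from 1552 to 589 ± 146 (SD over both shPHF2 libraries, n = 2), a log2 change of -1.42 with an SE of 0.26 (limma, adjusted p = 0.016). Espl1, the separase that cuts cohesin at anaphase, fell by 1.28, the spindle protein gene Spag5 (astrin) fell by 1.24 and Gsg2 (haspin, the kinase whose histone mark recruits survivin) fell by 1.19 on the log2 scale (limma, adjusted p from 0.021 to 0.025). The 1 gene that rose was Pttg1, which encodes securin, the inhibitor of separase. It had 600.1 normalised reads in the control, 1032 in replicate 1 and 1254 in replicate 2, a log2 change of 0.92 with an SE of 0.22 (limma, adjusted p = 0.033), above the control in both libraries.

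Genes of the anaphase-promoting complex, the target of the checkpoint, were also in that list. Of its 14 subunit genes, 0 fell and 0 rose by limma, near the 7.11% and 7.22% of all genes, 4 were lower at an unadjusted p under 0.05 (15.4% of all genes), and the authors' deposited table called 1 lower. The median log2 fold change was -0.22, with values from -0.64 to 0.43. Its activators Cdc20 and Fzr1 had -0.60 and -0.54 (limma, adjusted p = 0.094 and 0.11), and neither passed. Its ubiquitin-conjugating partner Ube2c fell by 1.12 (limma, adjusted p = 0.017).

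Genes of mitotic entry and of the replicative helicase were lower too. The background for both sets was 7.11% of all genes lower and 7.22% higher. Of 13 mitotic entry genes, 8 fell and 0 rose, with a median log2 fold change of -0.90. Their median difference of replicate 2 minus replicate 1 was -0.45. All 6 MCM helicase genes fell, with a median of -1.27, and their libraries were closer to each other, with a median difference of -0.14. The differences between these sets and the 42 were not tested.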

How the data were processed

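The submitters' processing notes list HISAT2, HTSeq, DESeq2 and mm10; versions, annotation and strand: not given in the sources used here. The values the authors deposited are a signal, each gene's reads over a size factor of its library. Dividing a column by its smallest step gave whole reads for 100% of values (tolerance 0.001), which recovered the reads. Other deposited columns hold the log2 fold change of the authors, a test score, and a p-value before and after adjustment (no adjusted value for 4280 genes). No library column went unused (0).

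Rows that name no gene (4) were left out; reads in genes made up 38.6%, 38.5% and 38.5% of the table's reads in shControl, replicate 1 and replicate 2. The test was limma 3.58.1 in R 4.3.3, two-sided, with moderated variances that follow a mean-variance trend, on log2(value + 1). It ran on 14148 genes whose mean reached 10, all 42 among them. The design has 1 residual degree of freedom and 6.94 prior ones, and assumes that the lone control varies like the shPHF2 libraries. Set against counting error alone, the shPHF2 libraries differed (chi-square per degree of freedom 58.9, 14185 genes), so they were not 1 library deposited again; this does not tell technical from biological spread. Beyond the description as biological replicates, nothing states how far the cultures were separate, so p-values may measure technical spread. edgeR 4.0.16 and DESeq2 1.42.0 were run as alternatives on the recovered counts, which the authors deposited only in scaled form; the fits were tested on simulated data. Other alternatives were a pseudocount of 5, no filter, a minimum mean of 50, no trend, TMM, total-read and quantile scaling, a loess correction for GC and length (span 0.5), and each shPHF2 library left out. Annotation came from GENCODE M21 (98.9% of genes matched). The genes and lists were chosen with earlier results of these data known. The naming rule took, per role, the 2 most negative and the 1 least negative fold changes with values in every library and, of the other pathway genes, the 5 largest called changes and any called higher; library values of other members, and the pathway genes Cenpb, Cenpc1, Cenpw, Apitd1, Mlf1ip, Itgb3bp, Mis18a, Cdc20, Fzr1 and Ube2c, were added after their values were seen. A pathway gene that the rule also takes is not reported here.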

Additional observations from a re-analysis of the deposited data

How the results depend on the processing

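Without a mean-variance trend, without a filter on low values and with quantile normalisation, limma called 0 genes of all tested, 0 of the 42, 0 constitutive, 0 outer and 0 checkpoint genes; at an unadjusted p under 0.05 it then had 3300, 3893 and 3700 genes, of which 1540, 1941 and 1825 were lower. Constitutive CENP genes called lower numbered 8 with a minimum mean of 50, and 3 both with scaling to total reads in genes and with the GC and length correction, instead of 5; outer genes numbered 5 with that correction instead of 8. Over all 42, 18 and 19 were called with these settings, and 25 to 30 with a pseudocount of 5, a minimum mean of 50, TMM scaling, edgeR or DESeq2; none was called higher. The log2 fold change of Zwint turned to 0.0048 with scaling to total reads in genes, 0.068 with quantile normalisation and 0.090 with the GC and length correction; the cause was not tested. The other 41 kept their sign under all these settings. The median of the 42 ranged from -1.04 to -0.89, and was -1.26 without shPHF2 replicate 1 and -0.79 without replicate 2, where 1 library against 1 leaves no test. No scaling moved the median of all genes by more than 0.1 on the log2 scale. No paired analysis was possible because the single control carries no replicate number. With a lone control the spread rests on the shPHF2 libraries. The 42 had at least 279.7 normalised reads in each library.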
